A study of Mus musculus with 800 samples.

Results

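Proneural basic helix-loop-helix (bHLH) factors of retinal fate were followed across single cells of the mouse retina at embryonic stage E15.5. The 7 genes Atoh7, Neurog2, Neurod1, Neurod2, Neurod4, Olig2 and Ptf1a were taken by symbol from the 49585 gene rows of the deposited count table. Proneural bHLH proteins bind DNA as dimers with widely expressed E proteins, at a short sequence called the E-box, and switch on programmes of neuronal differentiation. Id proteins take E proteins away from them, and the Notch effectors of the Hes and Hey families repress them, while proneural factors in turn induce Notch ligands such as the Delta genes. In the developing retina, progenitors that switch on a proneural factor are about to give rise to neurons, and the mouse knockouts of these genes lose or gain particular retinal cell types.

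The study sorted cells of Sert-Cre retinas of the C57BL/6 strain at E15.5 into 400 cells labelled Tomato+ and 400 labelled Tomato-. Sert-Cre places Cre recombinase under the driver of Slc6a4, the serotonin transporter gene, and the series title places the work in cell-fate specification and axon guidance of early born retinal neurons. The labels of both groups give 1 protocol, in which 30 retinas were digested with papain and sorted by flow cytometry into SmartSeq2 libraries, and they describe neither the sorting gate nor the Tomato allele. Sert-Cre is named for the whole series, so both groups carry it. Cells with more than 20% mitochondrial counts were left out, which took out 73 Tomato+ and 38 Tomato- cells. Median totals of the cells kept, over which all shares of a group are given, were 271789 counts for Tomato+, against 243410 for Tomato-. The labels tie no cell to an animal, so a group is 1 pool, and the groups are compared without a p-value. The last number in a cell's title is called the title number here. Title numbers 1 to 10 are Tomato+ and 11 to 20 are Tomato-, and the spread between them takes in the sampling of cells as well as technical differences. The Tomato+ pool had 103.75 CPM of Slc6a4 (CPM, a gene's counts over the total of its pool), against 0.546 CPM in the Tomato- pool.

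The promoters of the members on which the results turn are shown first, as the stretch of 250 bases before the start of each gene (RefSeq, GRCm38.p6), 5′ to 3′ on the strand of the gene. Capitals mark every E-box, searched as CANNTG, a pattern that reads the same on both strands. The windows lie at chr10:63099535-63099784 for Atoh7 (plus strand), chr3:127632886-127633135 for Neurog2 (plus strand), chr2:79456637-79456886 for Neurod1 (minus strand) and chr16:91225300-91225549 for Olig2 (plus strand).
Atoh7: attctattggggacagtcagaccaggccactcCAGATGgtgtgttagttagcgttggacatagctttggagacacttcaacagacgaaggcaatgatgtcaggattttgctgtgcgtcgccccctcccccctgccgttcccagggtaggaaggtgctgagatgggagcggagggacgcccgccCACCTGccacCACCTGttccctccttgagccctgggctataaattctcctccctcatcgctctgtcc
Neurod1: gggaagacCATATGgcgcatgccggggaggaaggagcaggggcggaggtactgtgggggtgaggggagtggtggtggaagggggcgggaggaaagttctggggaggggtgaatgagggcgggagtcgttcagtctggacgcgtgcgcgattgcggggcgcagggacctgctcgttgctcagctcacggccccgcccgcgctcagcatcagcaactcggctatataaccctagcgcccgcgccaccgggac
Neurog2: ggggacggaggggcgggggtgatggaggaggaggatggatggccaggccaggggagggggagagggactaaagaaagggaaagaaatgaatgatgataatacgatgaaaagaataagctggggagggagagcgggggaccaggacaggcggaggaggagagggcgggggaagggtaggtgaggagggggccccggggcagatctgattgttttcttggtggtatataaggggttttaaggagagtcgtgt
Olig2: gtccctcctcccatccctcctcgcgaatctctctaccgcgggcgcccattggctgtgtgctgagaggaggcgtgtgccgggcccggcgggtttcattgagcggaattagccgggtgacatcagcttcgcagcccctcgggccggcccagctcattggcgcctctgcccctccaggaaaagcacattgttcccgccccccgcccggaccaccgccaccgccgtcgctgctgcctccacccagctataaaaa
In the GENCODE M21 annotation of GRCm38 the genes lie at chr10:63099651-63101279 (Atoh7, plus strand), chr3:127633135-127635631 (Neurog2, plus), chr2:79452521-79456751 (Neurod1, minus), chr11:98325415-98329648 (Neurod2, minus), chr10:130268152-130280240 (Neurod4, minus), chr16:91225457-91228677 (Olig2, plus) and chr2:19445663-19447501 (Ptf1a, plus), and each is protein coding, with starts that for some genes differ from the RefSeq starts behind the windows. The Atoh7 window held 3 E-boxes, CAGATG at base 33 of the window and CACCTG at 67 and 57 bases before the RefSeq start, where the GENCODE gene has begun. The Neurod1 window held 1, CATATG at base 9 of the window. Of all 32851 promoter windows of this length, 66.2% held a CANNTG, 14.4% a CAGATG, 17.2% a CACCTG and 3.46% a CATATG, each counted on both strands. All 7 members had a window in the RefSeq table, Neurod4 having 2, and 3 of the 7 members had an E-box in a window: Atoh7, Neurod1 and Neurod2. In the windows of Neurog2, Neurod4, Olig2 and Ptf1a these letters were not found, which says nothing of binding outside them.

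Between the sorted groups, the members were low or absent in Tomato+ cells and present in minorities of Tomato- cells. A gene is called detected in a cell at 5 or more counts. Of the Tomato+ cells, 87.5% had no member detected, 34 cells had 1 and 7 had more than 1. Of the Tomato- cells, 51.1% had none, 96 had 1, 40 had 2, 27 had 3 and 14 had 4. Levels are CPM of the counts summed over cells, in which fewer cells with a transcript and less transcript per cell cannot be told apart, and shares of cells are given beside them. Both depend on transcript length and capture, so values of different genes are not set against each other.

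Atoh7, the factor that makes retinal progenitors competent to become retinal ganglion cells, reached 5 counts in 3 Tomato+ cells (0.917%; 95% interval 0.190 to 2.66) and in 46 Tomato- cells (12.7%; 9.46 to 16.6). Intervals of shares are exact Clopper-Pearson intervals and cover counting error only. Per title number its level was 0 CPM at the lowest, 0 at the median and 4.00 at the highest in Tomato+ cells, and 6.06, 7.81 and 18.2 CPM in Tomato- cells. Every Tomato- title number lay above every Tomato+ title number, and 7 of 10 Tomato+ title numbers had no Atoh7 count. Atoh7 stood at 0.672 CPM in the Tomato+ pool, against 8.71 CPM in the Tomato- pool.

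Neurog2, a factor of progenitors in their last divisions, was detected in 8 Tomato+ cells (2.45%; 1.06 to 4.76) and in 73 Tomato- cells (20.2%; 16.2 to 24.7). Its level per title number was 0.119 CPM at the lowest, 1.11 at the median and 4.16 at the highest in Tomato+ cells, against 11.1, 77.2 and 166.7 CPM in Tomato- cells. The title numbers of the groups did not overlap. The Tomato+ pool had 1.51 CPM of Neurog2, against 76.5 CPM in the Tomato- pool.

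Olig2, known in the mouse retina from progenitors whose terminal divisions yield cones, horizontal cells and other neurons, was detected in 0 Tomato+ cells, which allows a share of up to 0.917%, and in 30 Tomato- cells (8.29%; 5.66 to 11.6). Its 6 Tomato+ counts lay in 6 different cells. Per title number it ran from 0 through a median of 0.0969 to 0.170 CPM in Tomato+ cells, and from 5.86 through 20.3 to 79.3 CPM in Tomato- cells, again without overlap. The Tomato+ pool had 0.0695 CPM of Olig2, against 28.2 CPM in the Tomato- pool.

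Neurod1, which drives photoreceptor and amacrine differentiation, was detected in 34 Tomato+ cells (10.4%; 7.31 to 14.2) and in 30.9% of Tomato- cells (26.2 to 36). Its level per title number was 1.79 CPM at the lowest, 15.7 at the median and 121.8 at the highest in Tomato+ cells, and 72.4, 149.02 and 297.6 CPM in Tomato- cells. The groups overlapped, through Tomato+ title number 10, where 1 cell held 535 of 717 Neurod1 counts. The Tomato+ pool had 26.7 CPM of Neurod1, against 160.7 CPM in the Tomato- pool. Neurod1 lies inside an annotated span of Cerkl on the same strand and overlaps the non-coding gene Gm26755, and counting could split their reads. Cerkl had 8 counts over all Tomato+ cells, where Neurod1 had 2307, and in Tomato- cells, where Neurod1 had 15019, it was detected in 3 cells, 2 of them with Neurod1. Gm26755 had 0 counts in either group.

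Neurod4, a factor of amacrine and bipolar fate in the mouse, was detected in 4 Tomato+ cells (1.22%; 0.334 to 3.10) and 32 Tomato- cells (8.84%; 6.12 to 12.2). Its title numbers ranged from 0 to 35.5 CPM with a median of 0.149 in Tomato+ cells, and from 0.117 to 170.97 CPM with a median of 39.4 in Tomato- cells, and they overlapped. Few cells carried it, the 5 highest holding 98.5% of its counts in Tomato+ and 50.2% in Tomato- cells. Neurod4 stood at 5.46 CPM in the Tomato+ pool, against 51.4 CPM in the Tomato- pool.

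Neurod2, known from amacrine subtypes, had 0 counts in all cells of both groups, which allows a share of cells of up to 0.917% in Tomato+ and 0.829% in Tomato- cells.

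Ptf1a, which directs precursors to horizontal and amacrine fates, was detected in 2 Tomato+ cells (0.612%; 0.0742 to 2.19) and 20 Tomato- cells (5.52%; 3.41 to 8.40). Its level ran from 0 to 3.24 CPM per title number with a median of 0 in Tomato+ cells, and from 0.22 to 34.4 CPM with a median of 6.96 in Tomato- cells, with overlap. The Tomato+ pool had 0.533 CPM of Ptf1a, against 10.8 CPM in the Tomato- pool. Its annotated antisense partner Ptf1aos had 0 counts in both groups, and whether counting used the strand is not given in the sources used here, so reads of the pair cannot be told apart.

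**Figure D1:**
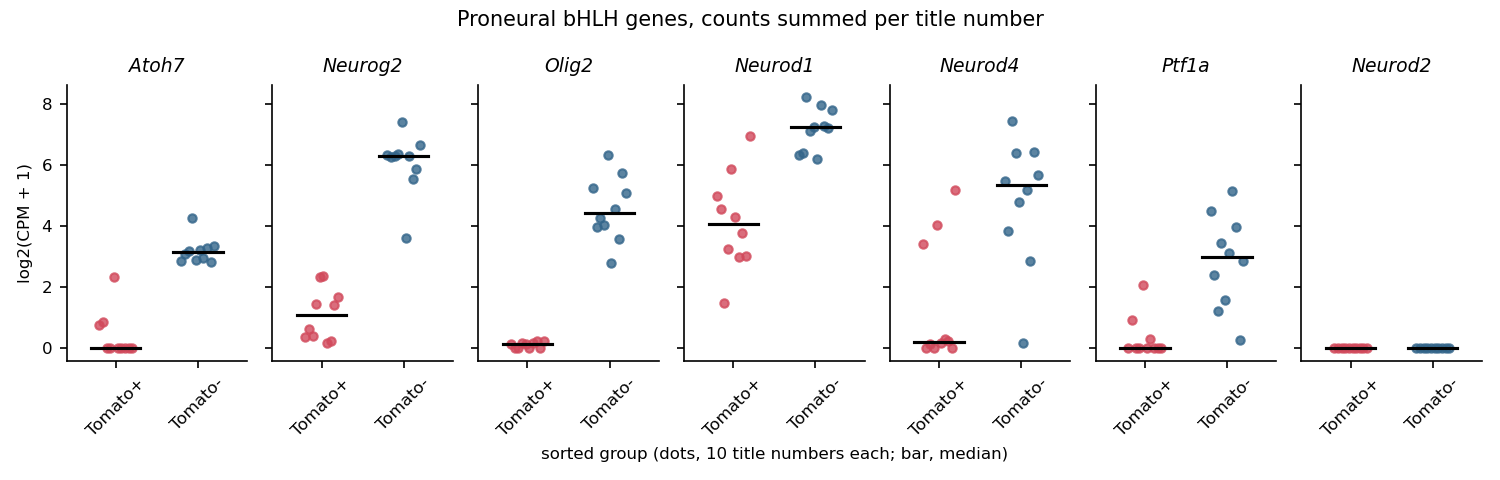
Levels of the 7 genes as log2(CPM + 1) (y axis) in Tomato+ (left) and Tomato- (right) cells, with 1 dot per title number, 10 in each group, and a bar at the median. Atoh7, Neurog2 and Olig2 have no overlap between the groups, Neurod1, Neurod4 and Ptf1a overlap, and Neurod2 lies at 0 throughout.

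As log2 ratios of Tomato+ over Tomato- with 10 CPM added to both pools, Neurog2 was lowest at -2.91, beside an SD between title numbers of 0.57. Neurod1 was at -2.22 (SD 0.87), Neurod4 at -1.99 (SD 1.05) and Olig2 at -1.92 (SD 0.54). Ptf1a at -0.98 (SD 0.49) and Atoh7 at -0.81 (SD 0.20) did not pass a log2 ratio of -1. Of the 6 members that passed the low-count filter, 4 were at -1 or lower, where 6.72% of all 10396 genes tested were, and 3 had no overlap of title numbers with Tomato+ lower, where 3.24% of the genes did. The median over the 6 was -1.96, against -0.06 over all genes tested. A gene passed the filter with detection in at least 5% of the cells of either group, and Atoh7, Neurog2, Neurod4, Olig2 and Ptf1a passed through Tomato- cells alone, so they had to be lower in Tomato+ cells and their count carries no weight. The added 10 CPM keeps ratios of low genes near 0, and with 1 CPM added Olig2 was at -4.77 and Atoh7 at -2.54. Averaged within the 40 rows that cell titles name, each of which holds cells of both groups, Olig2 was at -1.25 and Ptf1a at -0.55.

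To set shares at 1 depth, every cell was thinned to 94783 counts, and the 33 Tomato+ and 36 Tomato- cells below that total were dropped. Atoh7 then reached 5 counts in 0.680% of Tomato+ cells, against 7.36% of Tomato-, Neurog2 in 0.340%, against 16%, and Neurod1 in 7.14%, against 28.2%. Olig2 was in 0% of thinned Tomato+ cells, against 7.36% of Tomato-, Neurod4 in 1.36%, against 7.98%, and Ptf1a in 0.340%, against 4.60%. The thinning is 1 random draw.

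Markers of other cell populations differed in the same contrast. Summed over 11 proliferation genes, title numbers had 36.4 to 502.5 CPM if Tomato+, against 3605 to 5811 CPM if Tomato-. Summed over 12 marker genes of retinal ganglion cells (RGCs), they had 19081 to 22883 CPM, against 6955 to 12638 CPM. The 5 erythroid genes summed to 1.70 to 9145 CPM in Tomato+ title numbers, against 1.87 to 3.68 CPM in Tomato- ones, and the 5 microglia or macrophage genes to 0 to 49.2 CPM, against 0.133 to 707.8 CPM. The part of these populations in the members' ratios was not tested. Within cells with at least 8 of the 12 RGC genes and at most 2 of the 11 proliferation genes detected, Neurod1 was detected in 30 Tomato+ cells (9.77%; 6.69 to 13.7) and in 25 of 90 Tomato- cells (27.8%; 18.9 to 38.2), at median totals of 278035 and 325230 counts. In the same cells Neurog2 was detected in 5 Tomato+ (1.63%) and 2 Tomato- cells (2.22%), Atoh7 in 1 and 3, Neurod4 in 2 and 2, Ptf1a in 1 and 2, and Olig2 in none of either. Free RNA was not measured, and its part in these shares was not tested.

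Among Tomato+ cells, those with Neurod1 carried RGC genes as the rest did. Of the 34 with Neurod1, 32 had 8 or more RGC genes (94.1%), against 94% of Tomato+ cells without a Neurod1 count, the cells came from all 10 title numbers, and their median of RGC genes was 10, as in Tomato+ cells without a Neurod1 count. Of the 8 with Neurog2, 7 had 8 or more RGC genes (87.5%), against 94.6%, and 3 had 3 or more proliferation genes. Of the other members' cells, 1 of 3 with Atoh7, 2 of 4 with Neurod4 and 1 of 2 with Ptf1a had 8 or more RGC genes. The 3 Atoh7 cells had a median of 7 RGC genes, against 10 in Tomato+ cells without it, and 2 of them also had Neurod4. The 4 Neurod4 cells included 3 with Neurod1. Their RGC genes summed to 1810 CPM, against 20940 CPM in Tomato+ cells without a Neurod4 count, and Crx and Otx2, factors of photoreceptors, were in 3 of the 4, against 0.317% for either.

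Among Tomato- cells, Olig2, Neurog2, Neurod1 and Atoh7 were often detected in the same cells. Of the 30 Olig2 cells, 27 had Neurog2 (90%; 73.5 to 97.9), against 46 cells without Olig2 (13.9%; 10.3 to 18). Neurod1 was in 26 of the 30 (86.7%; 69.3 to 96.2), against 86 cells (25.9%; 21.3 to 31). Both pairs occurred in all 10 Tomato- title numbers. Atoh7 was in 13 of the 30 (43.3%; 25.5 to 62.6), against 33 cells (9.94%; 6.94 to 13.7).

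The Neurog2 cells thus took in 27 of the 30 Olig2 cells and many more. Of 73 Neurog2 cells, 43 had Neurod1 (58.9%; 46.8 to 70.3), against 69 cells without Neurog2 (23.9%; 19.1 to 29.2). Atoh7 was in 23 of the 73 (31.5%; 21.1 to 43.4), against 23 cells (7.96%; 5.11 to 11.7), and Olig2 in 27 (37.0%), against 3 cells (1.04%). Seen from Atoh7, 23 of its 46 cells had Neurog2 (50%; 34.9 to 65.1), against 50 cells without Atoh7 (15.8%; 12 to 20.3), and 26 had Neurod1 (56.5%; 41.1 to 71.1), against 86 cells (27.2%; 22.4 to 32.5).

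Neurod4 overlapped with Neurod1. Neurod1 was in 18 of 32 Neurod4 cells (56.2%; 37.7 to 73.6), against 94 of 330 cells without Neurod4 (28.5%; 23.7 to 33.7). Neurog2 was in 7 of the 32 (21.9%; 9.28 to 40.0), against 66 of 330 (20%; 15.8 to 24.7), intervals that overlap widely. Of the 30 Olig2 cells, 2 had Neurod4, and 1 of 28 did without title number 13.

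Olig2 was in 0 of 20 Ptf1a cells, which allows up to 15%, against 30 cells without Ptf1a (8.77%), so at this number of cells a lower share was not detectable. Its overlap with Neurod1, 4 of 20 cells (20%; 5.73 to 43.7) against 31.6% (26.7 to 36.8), and with Neurod4, 4 of 20 against 28 cells (8.19%; 5.51 to 11.6), had intervals that overlap as well.

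**Figure D2:**
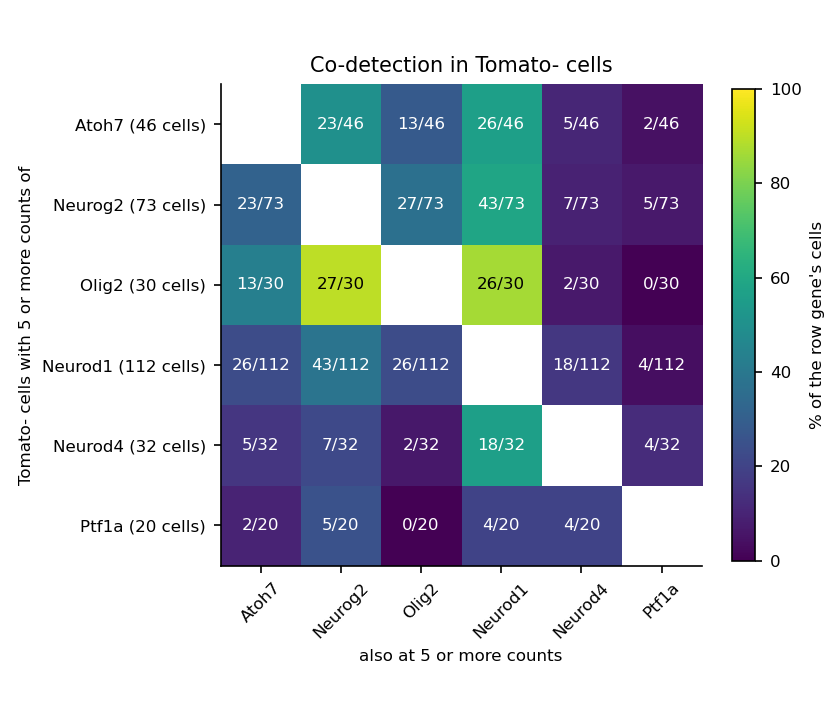
Co-detection of members in Tomato- cells, where each square gives the cells with both genes over all cells of the row gene, and colour gives the percentage. The Olig2 row is brightest at Neurog2 (27 of 30) and Neurod1 (26 of 30), and the Ptf1a row stays at 5 of 20 or fewer.

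Cells were also counted by the exact combination of members detected. The most frequent after no member and Neurod1 alone (47 cells) was Neurog2 alone (19), and then 12 cells had Neurog2, Neurod1 and Olig2 and 11 had these with Atoh7. Of those 11 cells, all had Otx2, Penk, Btg2 and Top2a detected. Atoh7 alone was found in 11 cells, Neurod1 with Neurod4 in 10, Neurog2 with Neurod1 in 9, Ptf1a alone in 9 and Neurod4 alone in 8. The 8 cells with Neurod4 alone and the 10 with Neurod1 and Neurod4 held different genes. Fgf15, a growth factor of progenitors, was in 8 of 8 and 4 of 10 cells, the Notch effector gene Hes1 in 7 of 8 and 2 of 10, and Otx2, a factor of photoreceptor and bipolar cells, in 1 of 8 and 9 of 10.

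No doublet caller was run. Pairs were recounted without cells that carried 8 or more genes of both the proliferation and the RGC list, 13 cells with a median total of 345362 counts, and without the tenth of cells with the highest totals. In these recounts 23 of 26 (88.5%) and 26 of 29 (89.7%) Olig2 cells had Neurog2, 22 of 26 (84.6%) and 25 of 29 (86.2%) had Neurod1, and 22 of 44 (50%) and 23 of 44 (52.3%) Atoh7 cells had Neurog2. A stricter recount without the cells with 3 or more genes of both lists left 9 Olig2 cells, of which 8 had Neurog2 and 6 (66.7%) had Neurod1.

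Neurog2, Olig2 and Atoh7 were detected most in the cells with the most proliferation genes. In Tomato- cells with 0 to 2, 3 to 7 and 8 to 11 of the 11 proliferation genes detected (37.3%, 33.4% and 29.3% of the cells), Neurog2 was detected in 5.19%, 21.5% and 37.7%, with an interval of 2.11 to 10.4 in the first and 28.5 to 47.7 in the last. Olig2 was detected in 0% (up to 2.22%), 6.61% and 20.8% (13.5 to 29.7), and Atoh7 in 5.93% (2.59 to 11.3), 10.7% and 23.6% (15.9 to 32.8). For these 3 genes the first and the last interval did not overlap. Neurod1 was detected in 31.1%, 28.1% and 34%. Neurod4, at 10.4%, 11.6% and 3.77%, and Ptf1a, at 7.41%, 4.96% and 3.77%, were lowest in the cells with the most proliferation genes, with overlapping intervals. Median totals of the ranges were 255365, 230343 and 262065 counts.

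The share of cells with Neurog2 or Olig2 was lowest in the cells with the most RGC genes. With 0 to 2, 3 to 7 and 8 to 12 of the 12 RGC genes detected (14.1%, 45.9% and 40.1% of the cells), Neurog2 was detected in 33.3% (20.8 to 47.9), 25.9% and 8.97% (4.86 to 14.8), Atoh7 in 11.8%, 19.3% and 5.52%, and Olig2 in 17.6% (8.40 to 30.9), 9.64% and 3.45% (1.13 to 7.86). Neurod1 was detected in 25.5% (14.3 to 39.6), 33.1% and 30.3% (23 to 38.5). The cells with 8 or more RGC genes had the highest median total, 332260 counts, against 203600 in those with 0 to 2. Low counts of RGC transcripts were widespread, Sncg having at least 1 count in 98.9% of Tomato- cells, so a few RGC genes in a cell do not mark it as an RGC. The ranges were chosen after these counts had been seen.

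**Figure D3:**
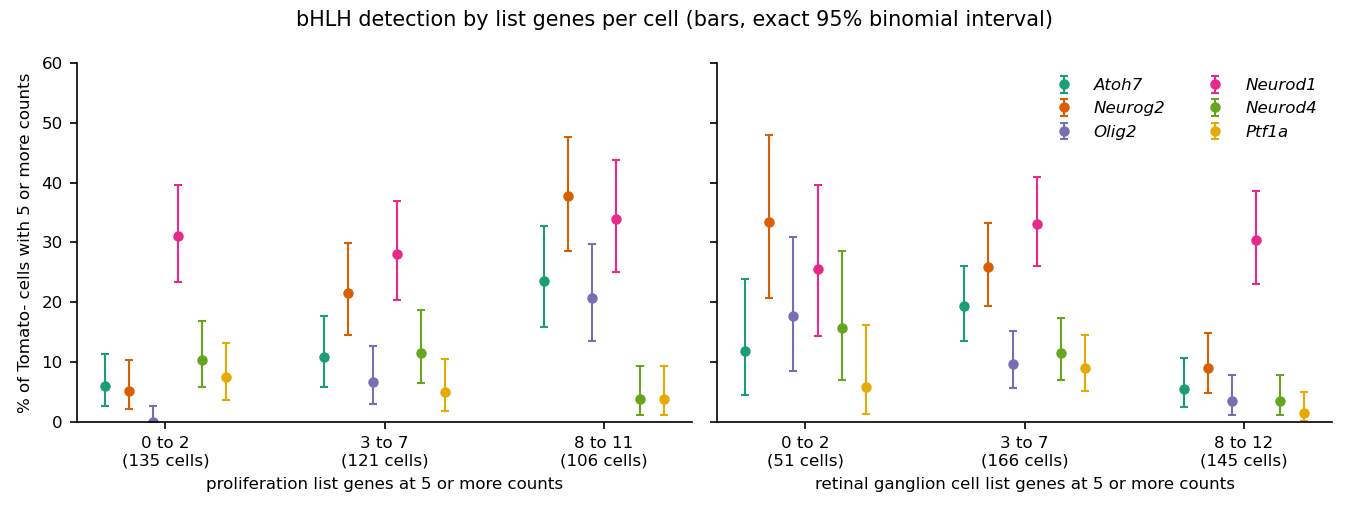
Share of Tomato- cells with each gene detected (y axis, %) by the number of proliferation genes (left) and RGC genes (right) detected in the cell, with exact 95% binomial intervals as bars. Neurog2, Olig2 and Atoh7 climb with proliferation genes, Neurog2 from 5.19% to 37.7%, while Neurod1 stays between 28.1% and 34%.

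Cells with a member were also set against Tomato- cells with 0 counts of it, gene by gene over lists of markers. Neurog2 cells had the proliferation antigen Mki67 in 66 of 73 (90.4%), against 46.6%, and the spindle protein gene Nusap1 in 72.6%, against 28.5%. The list of Notch ligands and proneural targets was chosen with earlier results of these data known, and regulation of its genes was not tested. Of that list, the anti-proliferative gene Btg2 was in 69.9% of Neurog2 cells, against 22.5%. The enkephalin precursor gene Penk was in 47.9%, against 3.56%, and the Notch ligand gene Dll4 in 31.5%, against 1.19%. Hes6, a Hes member that counters Hes1, was in 87.7%, against 66.8%. Of the RGC genes, the neurofilament gene Nefl was in 34.2%, against 65.2%, and the RGC transcription factor gene Pou4f1 in 13.7%, against 36%. The interval of each of these shares in Neurog2 cells lay outside that of the cells without Neurog2 counts. These genes were named for large differences or after their values were seen, so that separation carries no weight. Divided by Olig2, Penk was in 77.8% of the 27 Neurog2 cells with it and 30.4% of the 46 without it. Dll4 was in 51.9% and 19.6%, with intervals that overlap. Of the 19 cells with Neurog2 alone, 2 had Penk and 1 had Dll4.

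Olig2 cells differed most in Otx2, which was in 25 of 30 (83.3%), against 17.2% of cells without an Olig2 count. Mki67 was in 30 of 30, against 52.5%, and Cenpe, a motor protein of the spindle, in 26 of 30 (86.7%), against 33.8%. Penk was in 21 of 30 (70%), against 7.96%, Btg2 in 83.3%, against 27.1%, and Dll4 in 46.7%, against 3.82%. Foxn4, a factor of amacrine and horizontal cell precursors, was in 20 of 30 (66.7%), against 15.3%. The rest of that list did not all follow. Of the 27 Olig2 cells with Neurog2, 1 had Tfap2b and 0 had Prdm13, with intervals up to 19% and 12.8%. In all Tomato- cells these shares were 10.8% and 6.63%. Summed over the 11 genes of the list, Olig2 cells had 644.9 CPM, against 662.8 CPM, and the median cell 573.3, against 329.1 CPM. The cone-associated gene Rxrg was in 0 of 30, which allows up to 10%, against 11.1%, so a lower share was hardly detectable. Rxrg was not confined to photoreceptor precursors here, with detection in 40.1% of Tomato+ cells, against 10.5% of Tomato- cells.

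Atoh7 cells differed most in Gadd45a, Btg2 and Penk. Gadd45a, a stress and differentiation gene, was in 35 of 46 (76.1%), against 61 cells without an Atoh7 count (22.4%), Btg2 in 71.7%, against 22.8%, and Penk in 52.2%, against 5.51%. Of the RGC list, Pou4f1 was in 6 of 46 (13%), against 36.8%, and Rbpms in 17.4%, against 37.1%, while Pou4f2, the earliest of the list in RGC differentiation, was in 19.6%, against 25.4%. Otx2 was in 54.3%, against 14.7%. Divided by Neurog2, the 23 Atoh7 cells with Neurog2 had a median of 9 proliferation genes, against 3 in the 23 without it. Penk was in 18 of 23 with Neurog2 (78.3%; 56.3 to 92.5) and 6 of 23 without it (26.1%; 10.2 to 48.4). Otx2 was in 78.3% (56.3 to 92.5) and 30.4% (13.2 to 52.9). Btg2, in 87% and 56.5%, and Gadd45a, in 91.3% and 60.9%, had intervals that overlap.

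Neurod1 cells had Otx2 and Prdm1 at higher shares. Otx2 was in 57 of them (50.9%), against 17 cells without a Neurod1 count (9.24%), and Prdm1, which holds photoreceptor precursors to their fate, in 28.6%, against 3.26%. Pou4f2 was in 25%, against 26.6%, and Isl1 in 64.3%, against 56.5%. Hes1 was in 28.6%, against 51.6%, and the secreted Wnt modulator gene Sfrp2 in 17.9%, against 40.8%. Divided by Neurog2, the 43 Neurod1 cells with Neurog2 had a median of 554.4 CPM Neurod1, 9 proliferation genes and 4 RGC genes, against 160.4 CPM, 2 and 9 in the 69 without it. Otx2 was in 86% of the cells with Neurog2 and 29% of those without, Dll4 in 51.2% and 2.90%, and Pou4f2 in 6.98% and 36.2%. In the 47 cells with Neurod1 alone, Otx2 was in 14.9% and Prdm1 in 8.51%. These lay above the 9.24% and 3.26% of cells without a Neurod1 count, but below the 23.2% and 11% of all Tomato- cells.

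Neurod4 cells had the photoreceptor genes Crx, Prdm1 and Otx2 at higher shares, mostly through cells that also had Neurod1. Crx, the cone and rod factor, was in 11 of 32 (34.4%), against 10 of 290 (3.45%), Prdm1 in 43.8%, against 7.93%, and Otx2 in 59.4%, against 19.3%. Of the proliferation list, the cyclin gene Ccnb1 was in 2 of 32 (6.25%), against 83 of 290 (28.6%), but 3 or more genes of the list were in 56.2% of Neurod4 cells (37.7 to 73.6), against 62.4% (56.6 to 68), and 8 or more in 12.5% (3.51 to 29), against 30.7% (25.4 to 36.3). The horizontal cell factor Prox1 was in 1 of 32, against 56 of 290 (19.3%). Of the 18 cells with both Neurod1 and Neurod4, 10 had Crx, 14 had Prdm1 and 16 had Otx2. Of the 8 cells with Neurod4 alone, 0 had Crx, 0 had Prdm1 and 1 had Otx2. Crx was in 4 of the 94 Neurod1 cells without Neurod4.

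Ptf1a cells differed most in Prdm13 and Tfap2b, of the amacrine and horizontal list. Foxn4, of the same list, was in 2 of the 9 cells with Ptf1a alone (22.2%), near the 19.3% of all Tomato- cells. Prdm13, a factor of amacrine subtypes acting with Ptf1a, was in 13 of 20 (65%), against 10 cells without a Ptf1a count (3.06%), and Tfap2b, a factor of amacrine and horizontal cells, in 12 of 20 (60%), against 25 (7.65%). Pou4f1 was in 1 of 20, against 33.6%, and Dll4 in 0 of 20, which allows up to 15%, against 26 (7.95%), so a lower share was not detectable. Penk was in 10% of Ptf1a cells, against 12.2%.

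**Figure D4:**
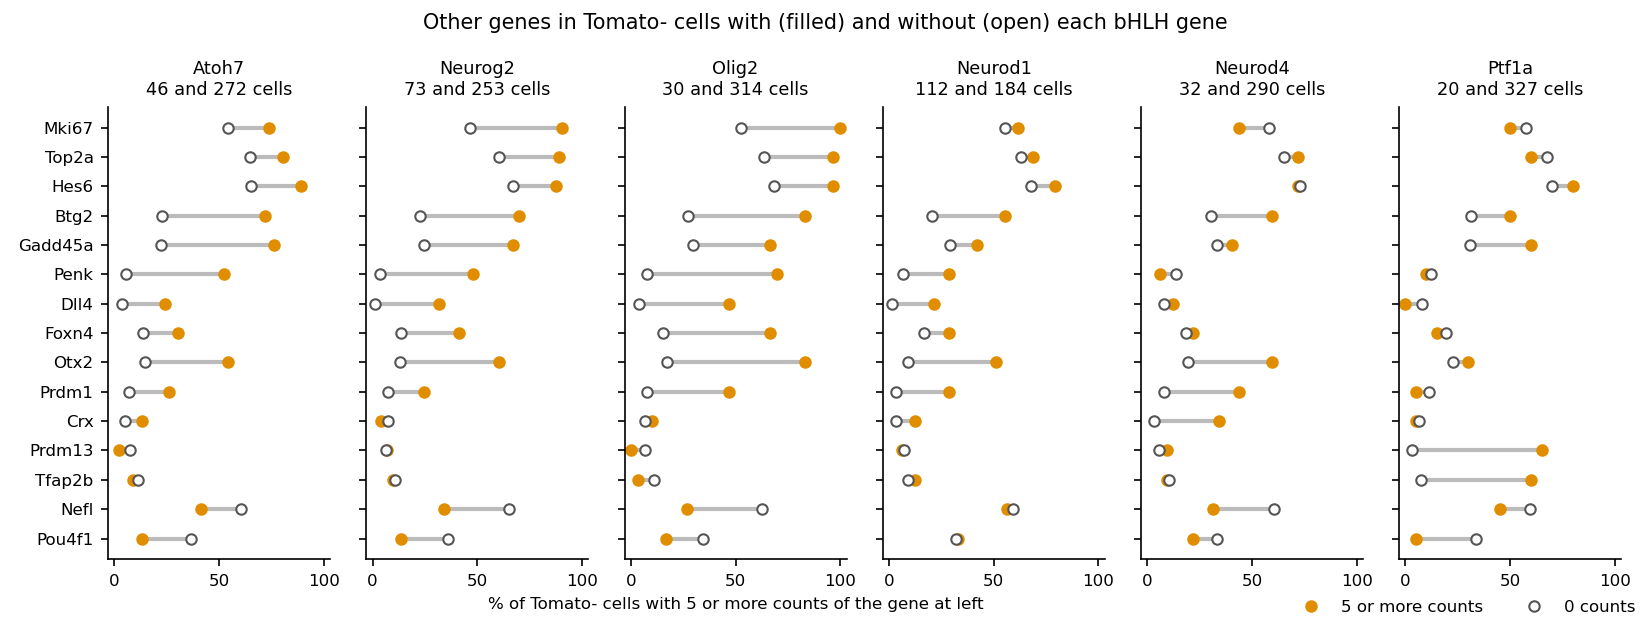
Percentage of Tomato- cells (x axis) with 15 other genes detected (rows), in cells with 5 or more counts of each bHLH gene (filled) and with 0 counts of it (open), with the numbers of both above each panel. Penk and Otx2 are at their highest shares in Olig2 cells (70% and 83.3%), Crx in Neurod4 cells (34.4%), and Prdm13 and Tfap2b in Ptf1a cells (65% and 60%).

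The 5 microglia or macrophage genes were detected each in at most 1 of the cells with Atoh7, Neurog2 or Neurod1 and in 0 of those with Olig2, Neurod4 or Ptf1a, and the 4 optic stalk or astrocyte genes each in at most 1 cell of any member. Of the 4 endothelial genes, Pecam1 and Cdh5 were in 0 cells with a member, and Cldn5, a tight junction gene, was in 3 of 20 Ptf1a cells, against 2 (0.612%). Kdr, a receptor of endothelial cells that neural progenitors of the retina also express, was in 30% of Olig2 cells, against 21.3%, in 21.9% of Neurog2 cells, against 21.3%, and in 10% of Ptf1a cells, against 23.2%. Summed over the 4 genes, Ptf1a cells had 108.7 CPM, against 78.9 CPM without a Ptf1a count, and Olig2 cells 84.3 CPM, against 79 CPM. The part of such cells in these shares was not tested.

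Genes whose levels across the Tomato- cells ran most like those of a member were ranked by Spearman's rho of log2(CPM + 10). All cells of the ranking share the pool and the counting, sparse counts hold rho low, and values are given as a description. Nearest to Neurog2 were Dll4 (0.48), Penk (0.46), Olig2 (0.45), Btg2 (0.41) and Otx2 (0.39). To Olig2 the nearest were Neurog2 (0.45), Dll4 (0.37), Penk (0.37), Epha3 (0.36) and Btg2 (0.36). Atoh7 had Penk (0.41), Btg2 (0.40), Gadd45a (0.39), Rassf4 (0.38) and Sstr2 (0.37). Neurod1 had Otx2 (0.50), Dll4 (0.36), Prdm1 (0.35), Ankrd33b (0.35) and Olig2 (0.34). Neurod4 had Crx, Ankrd33b, Otx2, Fyco1 and Prdm1, all between 0.24 and 0.27, and Ptf1a had Prdm13 (0.37), Tfap2b (0.27), Rorb, Rassf4 and Sox11.

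The rest of the bHLH network was read from lists chosen with earlier results of these data known. Of 10 other neural bHLH activators, 3 passed the filter, and 0 of these had a log2 ratio of -1 or lower. Of all genes tested, 6.72% did, so 0 of 3 carries no weight. Of the 10, 5 had no count in either group: Atoh1, Neurog1, Neurog3, Neurod6 and Olig3. Nhlh2, a bHLH factor of young neurons, stood at 180.53 CPM in Tomato+, against 122.2 CPM in Tomato- cells (log2 ratio 0.53, SD 0.40), and was detected in 72.5%, against 35.9%. Nhlh2 was in 10% of Olig2 cells, against 38.9% of Tomato- cells without an Olig2 count.

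The 3 E protein genes were detected in both groups. Tcf4 stood at 89.7 CPM in Tomato+, against 245.1 CPM in Tomato- cells (-1.36, SD 0.43), Tcf12 at 66.7, against 138.98 CPM (-0.96, SD 0.42), and Tcf3 at 24.1, against 52.2 CPM (-0.86, SD 0.36). Of the 3, 1 was at -1 or lower, where 6.72% of all genes tested were, and a count over 3 genes carries no weight. Of the 4 Id genes, 3 were at -1 or lower with no overlap of title numbers, beside 6.72% and 3.24% of all genes tested. Id1 and Id3 passed the filter through Tomato- cells alone and so had to be lower. Id3 stood at 0.973 CPM in Tomato+, against 145.5 CPM in Tomato- cells (-3.82, SD 0.35), Id2 at 6.82, against 90.8 CPM, and Id1 at 1.25, against 55.2 CPM. Id4 was at 0.23 (SD 0.27). Among Tomato- cells Id1 was in 41.1% of Neurog2 cells, against 22.5%, and Id3 in 18.8% of Neurod1 cells, against 34.8%.

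Of the 5 Hes and Hey genes, 4 passed the filter and all 4 were at -1 or lower, where 6.72% of all genes tested were. Hes1, Hes5 and Hey1 passed through Tomato- cells alone and so had to be lower in Tomato+ cells, while Hes6 was in 39.4% of Tomato+ cells, against 71% of Tomato-. Hes1, the main Notch effector of progenitors, stood at 7.46 CPM in Tomato+, against 419.95 CPM in Tomato- cells (-4.62, SD 0.81), Hes5 at 4.43, against 110.2 CPM (-3.06, SD 0.64), and Hes6 at 105.7, against 721.6 CPM (-2.66, SD 0.52). Within Tomato- cells Hes1 was in 41.1% of Neurog2 cells, against 42.7% of cells without Neurog2 counts, and Hes5 in 45.2%, against 27.7%.

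**Figure D5:**
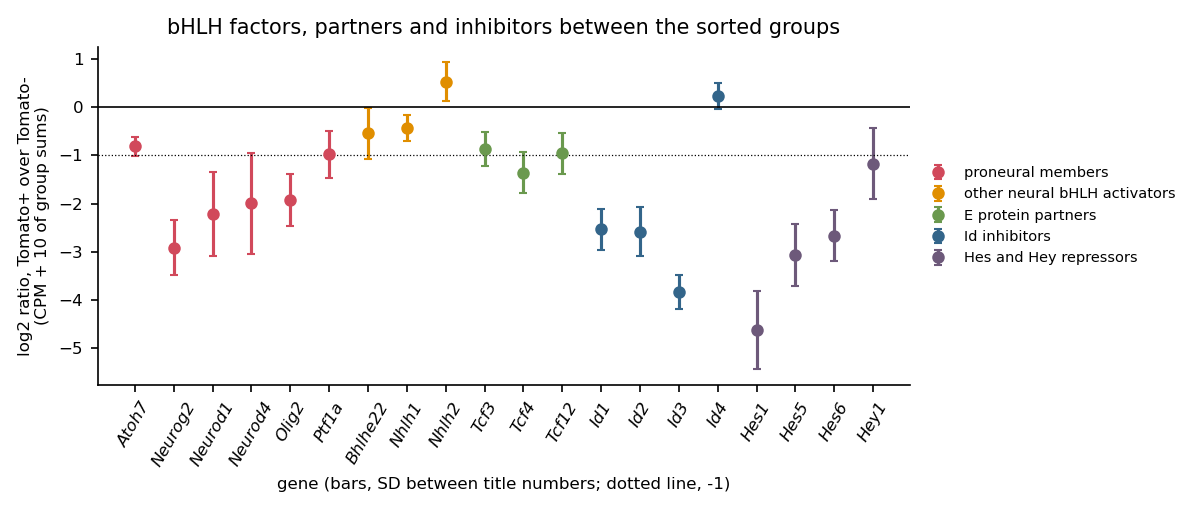
Log2 ratios of Tomato+ over Tomato- (y axis, 10 CPM added) for the tested members, other neural bHLH activators, E proteins, Id inhibitors and Hes or Hey repressors, with bars for the SD between title numbers and a dotted line at -1. Hes1 (-4.62) and Id3 (-3.82) lie lowest, and Nhlh2 (0.53) and Id4 (0.23) lie above 0.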

How the data were processed

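Counts per gene and cell were deposited by the authors as unnormalised whole numbers, with cell headers ending in "umi". Whether they are reads or unique molecules is not given in the sources used here, nor are the aligner, counter and annotation. The submitters' processing notes name Seurat 2.3, R 3.4.4 and mm10. Of the table's columns, 800 matched labelled cells and 1 matched none and was not used. Cells with more than 20% of counts in 37 mitochondrial genes were left out (73 Tomato+ and 38 Tomato-, leaving 327 Tomato+ and 362 Tomato-), and 92.2% of the table's values are 0. The table holds 0 rows for Cre or Tomato.

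Counts were summed per group or title number and divided by the sum of totals (86301166 in Tomato+, 93484125 in Tomato- cells). Genes with 5 or more counts in at least 5% of either group's cells entered the group comparison. The SD between title numbers is that of log2(CPM + 10), combined over both groups. Each group is 1 pool, so no p-value was made. Intervals are at 95%, and 0 cells were given a limit of 3 cells. Thinning drew 94783 counts per cell (the 10th percentile of totals). Spearman's rho was computed over 9335 genes. Named genes are the members, the listed genes with the largest ratios or found in at least 5% of Tomato- cells, the 5 genes most like each member (predicted genes, Xist and Y-linked genes passed over), and the 2 or 3 genes of each marker list with the largest difference in share. Mki67, Dll4, Hes6, Pou4f2, Isl1, Rxrg, Crx, Foxn4, Hes1, Kdr and Penk are named for some members outside that rule, after their values were seen. The members and lists were chosen with earlier results of these data known. The analysis ran in Python 3.11.15 with pandas 2.3.3, NumPy 2.4.6 and SciPy 1.17.1, and the ratio and rank steps were tested on simulated data. Alternatives were scaling in R 4.3.3 by edgeR 4.0.16 (TMM) or by DESeq2 1.42.0 (median of ratios), and other pseudocounts, thresholds and filters. Gene overlaps are from GENCODE M21 (GRCm38), and promoter sequences from RefSeq (GRCm38.p6).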

Additional observations from a re-analysis of the deposited data

Results flagged for a closer look

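Over the 10 title numbers of a group, 6 of 12 series of member levels had 1 title number far from the others, by a gap to the next above Dixon's 95% critical value, which chance gives in about 1 in 20 groups. The levels are skewed and come from few cells, so many such gaps rest on 1 cell. Neurod1 stood at 121.8 CPM in Tomato+ title number 10, the next being 56.9 CPM, and 1 cell held 74.6% of those counts. Neurod4 stood at 35.5 CPM in the same title number, the next being 15.2 CPM, with 1 cell holding 99.5% of the counts. Atoh7 stood at 4.00 CPM in Tomato+ title number 5, the next being 0.808 CPM, with 31 of 42 counts in 1 cell. Ptf1a stood at 3.24 CPM in that title number, the next being 0.897 CPM, with 33 of 34 counts in 1 cell. In Tomato- cells Neurod4 stood at 170.97 CPM in title number 13, the next being 85.2 CPM, with 784 of 1432 counts in 1 cell. Atoh7 stood at 18.2 CPM in Tomato- title number 14, the next being 9.24 CPM, with 7 cells detected and 26.8% of counts in 1 cell.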

How the results depend on the processing

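All 6 log2 ratios kept their direction with 1 CPM added, TMM or median-of-ratios scaling (which raise the log2 ratio of every gene before a CPM is added by 0.12 and 0.14), cells weighted equally, no mitochondrial filter or a limit of 10%, and each title number left out, where Neurog2 ran from -3.02 to -2.77 and Atoh7 from -0.87 to -0.71. With 1 CPM added they moved to -2.54 for Atoh7, -4.95 for Neurog2, -4.77 for Olig2 and -2.94 for Ptf1a, since a smaller added level weighs less on low genes. Detection at 1 or more counts gave 24.9% of Tomato- cells for Atoh7, 30.1% for Neurog2, 49.2% for Neurod1, 19.9% for Neurod4, 13.3% for Olig2 and 9.67% for Ptf1a. Detection at 20 or more counts gave 3.87% for Atoh7, 15.7% for Neurog2, 26% for Neurod1 and 3.31% for Ptf1a, and thinned cells gave 7.36% for Atoh7 and 16% for Neurog2. Of Olig2 cells, 25% had Atoh7 at 20 or more counts, 72.9% had Neurog2 at 1 or more, and 66.7% had Neurod1 without cells with 3 or more genes of both lists; the cause was not tested. With Olig2 within rows, 20 main values moved by more than their spread, as did 11 values of single genes or lesser pairs, 0 reversed, and leaving out a title number moved none by that measure. Without title number 13, 7.14% of Neurod4 cells had Atoh7, against 15.6% with it, and without title number 14, 5.56% of Ptf1a cells, against 10% with it. The recount without cells with 8 or more genes of both lists and the ranges of list genes were chosen after seeing the data. The groups share no title number. Titles also name 40 rows, each with cells of both groups, and no label says what a row shares. With the row as a replicate block, a choice also made after seeing the data, mean ratios within rows were -2.36 for Neurog2, -2.36 for Neurod1, -1.38 for Neurod4, -1.25 for Olig2, -0.72 for Atoh7 and -0.55 for Ptf1a, and Olig2 moved beyond its spread. Depth limits the shares: a cell with few counts can miss a transcript it holds, and a lower share of Olig2 in Ptf1a cells was not detectable with 20 cells.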
